A study of Mus musculus with 4 samples.

Results

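The genes described here are the respiratory complex I family: every gene whose symbol on the array platform starts with Nduf, followed by the letter of a subunit series (a, b, c, s, v), by af for assembly factors or by ab for the acyl carrier protein, and then by a number. Of 45101 probe sets on the array, 88 carried such a symbol and no other, and they stood for 44 of 18193 genes. The family was put forward with its differences between space flight and ground control already known. Those differences are therefore given as a description, with standard errors but with no p-value for a member, and nothing is supported by them.

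Complex I is the entry point of the mitochondrial respiratory chain. It takes electrons from NADH, passes them along a row of iron-sulphur clusters to ubiquinone, and pumps protons across the inner membrane. It is built from preassembled modules: the N module binds NADH, the Q module reduces ubiquinone, and the membrane arm is made of modules that form around the mitochondrially encoded ND subunits. Core subunits carry the cofactors and the pumps and have counterparts in bacteria, accessory subunits surround them, and assembly factors help to build the enzyme and then leave it. In macrophages, inflammatory activation is known to lower the use of respiration in favour of glycolysis, whereas alternative activation relies on respiration. Ndufa4 keeps its old name but is a subunit of complex IV, and Ndufa4l2 is its paralogue, known as a gene induced by hypoxia, so the label of complex I does not hold for these members.

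The study asked how bone marrow cells become macrophages in culture during space flight. The 2 space flight arrays hold RNA of C57BL/6 mouse bone marrow cultures flown on a shuttle, and the 2 ground control arrays hold RNA of parallel cultures kept on the ground with a matched temperature course at 37 °C. Marrow of 21 adult mice was pooled, so the arrays of a group are separate culture pools (2 barrels each) and not separate animals. All cultures held macrophage colony-stimulating factor, M-CSF, at 1.5 µg/ml, the growth factor that drives marrow cells towards macrophages, received medium again on culture day 6 and were lysed on culture day 15. Of 4 pools per group, those with the best RNA were used, and the RNA integrity number was still only 3 for each.

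Levels are normalized log2 intensities, log2(value + 16), and each difference is the space flight mean less the ground control mean on that scale. Each gene is represented by its brightest probe set, and a gene is called measured if its mean was at least 6.40, a dim limit set at the median of the 45037 non-control probe sets. Macrophage markers were present: Csf1r, the M-CSF receptor, stood at 14.87 and 14.91 in space flight, against 15.28 and 15.24 in ground control, and Cd68 and Lyz2 also lay far above the dim limit in all 4 libraries. Of the 8 markers on the list 6 were lower in space flight by their means, Mertk differed by 0.33, and Fcgr1 had 6.66 and 7.51 in space flight, against 6.01 and 6.13, below the limit, in ground control. The summed intensity of 8 macrophage markers was 100511 to 104587 in space flight and 124418 to 125794 in ground control. That of 9 neutrophil markers was 78288 to 108427 in space flight and 38558 to 42603 in ground control, and that of 6 erythroid markers was 6374 to 12118 in space flight and 1588 to 3247 in ground control. The sum of 5 proliferation markers was 4106 to 4564 in space flight and 1472 to 2297 in ground control. These sums weigh bright genes most, here Slc4a1 among erythroid and Mcm7 among proliferation markers. By their means all 9 neutrophil, 5 of 6 erythroid and 4 of 5 proliferation markers were higher in space flight. Epor at −0.34 and Cdk1 at −0.28 were lower, and groups overlapped for both and for Mki67 and Top2a. The proliferation markers had a median of 0.01 on space flight array 1 and 1.15 on array 2. No marker on these lists had a mean over the arrays below the dim limit, and their part in the differences below was not tested. In bulk RNA, fewer cells of a type and less RNA per cell cannot be told apart. For Gapdh, the control probes at the 3' end were 4.09 and 15.2 times as bright as those at the 5' end in space flight, against 4.13 and 3.33 times in ground control, so space flight array 2 stood apart by this measure. For Actb the same ratio was 3.08 and 4.91 in space flight, against 2.30 and 2.84 in ground control, higher on both space flight arrays. The part of RNA quality in the differences below was not tested.

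Promoters of the family were examined for motifs of factors known to drive nuclear genes of respiration: NRF1 (GCGCA, any base, then GCGC), GABPA (CCGGAAG) and YY1 (AAGATGGC), each on both strands. Sequences are from RefSeq, build GRCm38.p6, and run from 250 bases before a gene's start to 50 after it. Of the 44 genes, 39 had such a sequence. The NRF1 motif was present in 7 of the 39 (17.9%, against 5.19% of 27025 genes of the table), the GABPA motif in 6 (15.4%, against 9.93%) and the YY1 motif in 7 (17.9%, against 3.19%). For NRF1 and GABPA, the 250 bases before the start are shown for the member with the highest and the member with the lowest difference among measured members with a match there, with the motif in capitals.
Ndufa5 (chr6:24527691-24527940, minus strand): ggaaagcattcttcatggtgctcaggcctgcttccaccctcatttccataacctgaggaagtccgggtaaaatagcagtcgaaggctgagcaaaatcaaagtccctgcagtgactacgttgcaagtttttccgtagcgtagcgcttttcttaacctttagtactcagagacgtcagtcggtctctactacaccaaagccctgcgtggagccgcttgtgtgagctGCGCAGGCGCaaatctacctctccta
Ndufa8 (chr2:36049339-36049588, minus strand): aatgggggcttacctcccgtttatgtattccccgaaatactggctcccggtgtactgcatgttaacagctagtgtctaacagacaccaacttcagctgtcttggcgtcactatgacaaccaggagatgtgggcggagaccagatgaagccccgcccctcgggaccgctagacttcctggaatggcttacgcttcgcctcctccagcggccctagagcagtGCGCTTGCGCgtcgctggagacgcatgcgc
Ndufaf8 (chr11:120098684-120098933, plus strand): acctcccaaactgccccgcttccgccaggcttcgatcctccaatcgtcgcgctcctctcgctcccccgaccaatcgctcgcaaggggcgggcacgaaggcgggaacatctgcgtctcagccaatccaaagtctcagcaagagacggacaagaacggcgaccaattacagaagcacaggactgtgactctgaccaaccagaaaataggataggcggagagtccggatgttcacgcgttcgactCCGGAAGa
Ndufaf1 (chr2:119662835-119663084, minus strand): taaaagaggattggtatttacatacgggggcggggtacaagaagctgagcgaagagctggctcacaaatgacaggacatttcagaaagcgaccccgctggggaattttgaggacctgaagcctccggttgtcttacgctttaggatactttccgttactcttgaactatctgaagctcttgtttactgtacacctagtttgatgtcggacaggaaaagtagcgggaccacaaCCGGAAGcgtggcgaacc

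The NRF1 matches stand at −26 in Ndufa5 and −30 in Ndufa8, and the GABPA matches at −8 in Ndufaf8 and −18 in Ndufaf1, counted from the start. In that order the members differed by 1.14, −0.19, 1.03 and −0.13, a spread that follows from how they were picked. Each of the 7 YY1 matches lay after the start, on the gene's own strand, and they are shown with short flanks, the motif in capitals, because they lie in a narrow stretch; the strand is plus for Ndufaf8, Ndufs7 and Ndufa3 and minus for the others.
Ndufaf8 (chr11:120098934-120098955): ggcagggcccAAGATGGCggcg
Ndufb8 (chr19:44555393-44555414): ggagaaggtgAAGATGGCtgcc
Ndufs7 (chr10:80249463-80249484): ggccgaggccAAGATGGCggcg
Ndufc1 (chr3:51408922-51408943): cctgcggaacAAGATGGCgccg
Ndufa3 (chr7:3617385-3617406): cgccaagaacAAGATGGCcggg
Ndufa9 (chr6:126849104-126849125): attgtgggagAAGATGGCggcc
Ndufs4 (chr13:114388048-114388069): tgcctacaggAAGATGGCggcg
The motif began 11 to 39 bases after the start in these genes. From the top line down the differences were 1.03, 0.80, 0.66, 0.42, 0.24, 0.24 and −0.17. A match is a description of letters and shows neither binding nor a cause.

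As a family, the complex I genes stood a little higher in the cultures lysed in flight. Over all 44 genes the median difference was 0.24, against 0.03 over all 18193 genes. Of the 43 measured members, 35 were above 0 and 8 below 0, where 51.2% of the 11141 measured genes were above 0. Both space flight values lay above both ground control values for 23 members (23.0% of measured genes) and below both for 2 (22.5% of measured genes). The filter on dim genes did not choose the direction, since the ground control mean of each of the 43 reached the dim limit too. The member left out, Ndufb4, had a mean of 5.03 by its only single-symbol probe set, and Ndufa4l2 was just inside at 6.45.

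No member passed limma's test over all measured genes at an adjusted p of 0.05: 0 of 43, where 7 of 11141 genes passed, 0.0628%. Of all measured genes 0.0449% passed as higher and 0.018% as lower. At an unadjusted p under 0.05 there were 14 members, each higher in space flight, against 6.88% of all measured genes that were higher and 7.32% that were lower. With 1 array left out, the remaining array of its group has to borrow the spread of the other group. The count past the threshold was then 9 members when space flight replicate 1 was left out, beside 1080 of all measured genes (9.69%), and 4 when replicate 2 was, beside 741 (6.65%). It was 0 when ground control replicate 1 was left out, beside 7 (0.0628%), and 1 when ground control replicate 2 was, beside 41 (0.368%). The count of members higher at an unadjusted p under 0.05 was below 14 without ground control replicate 1 or 2 or space flight replicate 2. It was above 14 without space flight replicate 1. The share of all measured genes higher by this rule fell without either ground control array and rose without either space flight array. The contrast had been used to choose the family, so these counts are printed beside the background and nothing is read from them. Space flight array 1 gave a family median of 0.20 and array 2 one of 0.41, while the ground control arrays lay at −0.09 and 0.09. Leaving out space flight replicate 1 gave 0.41, and leaving out ground control replicate 2 gave 0.40. On array 1, 31 of 43 members lay above the ground control mean and on array 2, 35 did, against 50.8% and 51.9% of measured genes. The shift was thus seen on both space flight arrays and was about as large as the gap between them. Members also moved together within a group: array 2 lay above array 1 for 32 of 43 in space flight and for 30 in ground control.

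**Figure D1:**
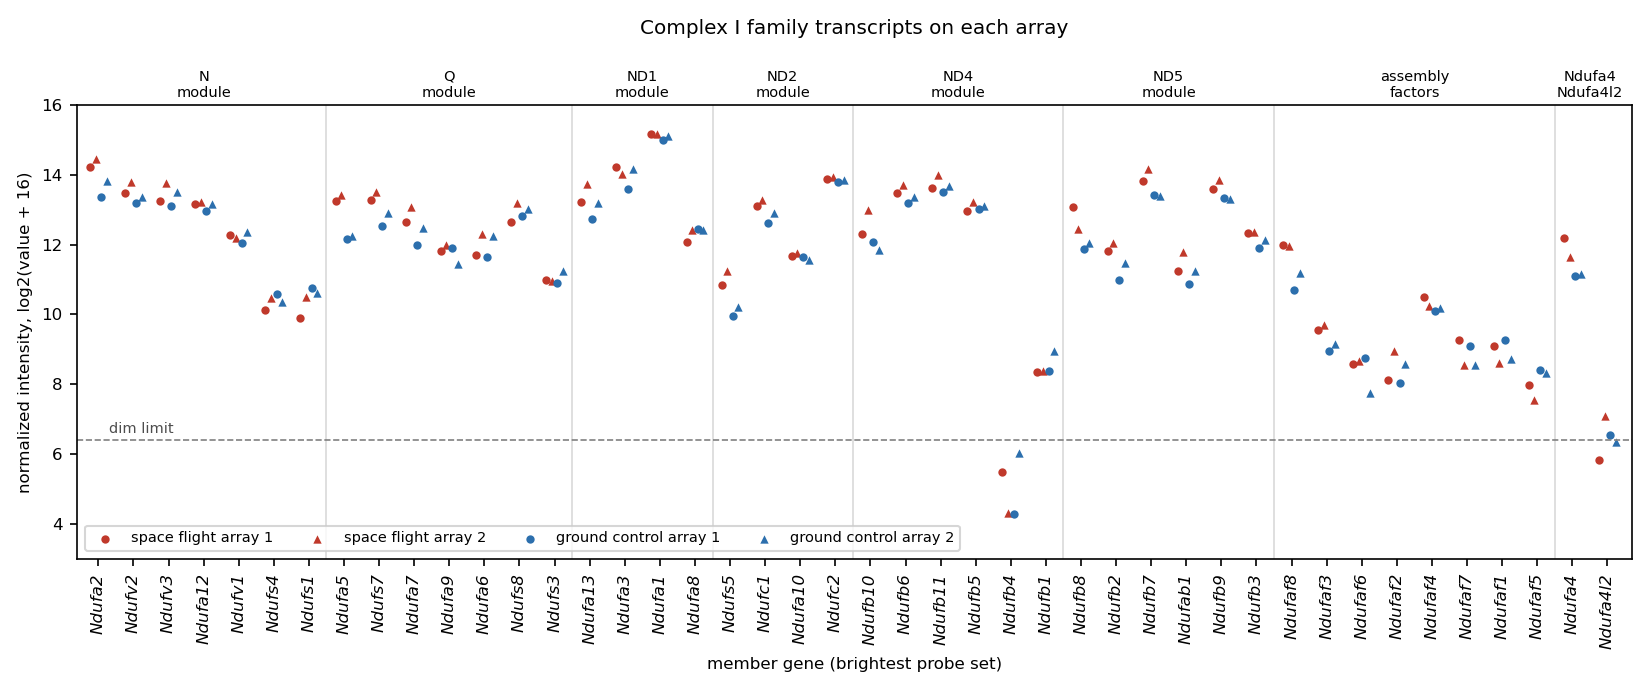
Level of each of the 44 member genes on the 4 arrays, as normalized log2(value + 16) of its brightest probe set; genes are grouped by complex I module and ordered by their difference within it, and the dashed line is the dim limit of 6.40. Levels of different genes come from different probes and are not comparable, but within a gene the red space flight points lie above the blue ground control points for Ndufa5, Ndufa2, Ndufs5 and Ndufaf8 and below them for Ndufs1 and Ndufaf5.

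The core subunits centred on 0. The 6 that were measured had a median difference of 0.00, with 3 above 0 and 3 below, while the 27 measured accessory subunits had a median of 0.32, with 24 above 0 and 3 below. On space flight arrays 1 and 2 the core subunits had medians of −0.01 and 0.13, and the accessory subunits 0.21 and 0.43. With the arrays shifted to 1 median the core subunits stood at −0.19 and the accessory subunits, over all 28, at 0.17. In that setting the median of all measured genes was −0.16. This comparison of subunit classes was made after the values were known and was not tested.

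Among the core subunits, Ndufv1 binds NADH and the flavin that takes its electrons. Ndufv1 had 12.27 and 12.20 in space flight, against 12.06 and 12.38 in ground control, a difference of 0.02 ± 0.21 (SE, n = 2 arrays per group, as for all errors of differences). The space flight values lay inside the ground control range, and its other 2 probe sets gave 0.02 and 0.14. Its partner in the N module, the iron-sulphur protein Ndufv2, had 13.48 and 13.81 in space flight, against 13.19 and 13.36 in ground control, a difference of 0.37 ± 0.18. The groups did not overlap, and its other probe sets gave 0.28 and 0.12. Ndufs1, the largest subunit of the enzyme and a carrier of iron-sulphur clusters, had 9.90 and 10.51 in space flight, against 10.77 and 10.62 in ground control. This was the lowest difference of any core subunit, −0.49 ± 0.30, and both space flight arrays lay below both ground control arrays, array 1 by far the most.

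In the Q module, Ndufs7 holds the last iron-sulphur cluster of the chain, next to ubiquinone. Ndufs7 had 13.28 and 13.50 in space flight, against 12.54 and 12.92 in ground control, a difference of 0.66 ± 0.20. It was the highest core subunit, its groups did not overlap, and its second probe set gave 0.69. Ndufs8, which carries the clusters before that one, had 12.64 and 13.21 in space flight, against 12.84 and 13.03 in ground control, a difference of −0.01 ± 0.22. Its 6 probe sets did not agree in sign and ran from −0.40 to 0.30. Ndufs3, a core subunit without a cofactor, had 10.99 and 10.95 in space flight, against 10.91 and 11.23 in ground control, a difference of −0.10 ± 0.25. The space flight arrays lay within the ground control range.

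The highest member was an accessory subunit of the Q module, Ndufa5. It had 13.25 and 13.44 in space flight, against 12.16 and 12.25 in ground control, a difference of 1.14 ± 0.19, or 2.20-fold. Both space flight arrays lay above both ground control arrays by far more than either pair differed, and its second probe set, at 10.45 and 10.57 in space flight and 9.56 and 9.52 in ground control, gave 0.97. The difference was 0.96 to 1.23 over the 14 alternatives computed. Ndufa7 stood at 0.63 ± 0.23, and its 5 probe sets all lay above 0, from 0.50 to 1.16. Ndufa9 at 0.24 ± 0.24 and Ndufa6 at 0.05 ± 0.28 had overlapping groups. Of the 7 members of this module, 5 were above 0 and the median was 0.24.

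Besides its core subunits, the N module has accessory subunits at the NADH-binding tip. Ndufa2 had 14.23 and 14.47 in space flight, against 13.38 and 13.83 in ground control, a difference of 0.75 ± 0.18. It was the highest member of this module, with groups that did not overlap. Ndufs4, whose loss in mice gives a model of Leigh syndrome, had 10.13 and 10.47 in space flight, against 10.58 and 10.35 in ground control, a difference of −0.17 ± 0.28. Its groups overlapped, and its 4 measured probe sets were split evenly between the signs, from −0.57 to 0.50. Ndufv3 at 0.20 ± 0.22 and Ndufa12 at 0.13 ± 0.18 lay between these. The median of the 7 measured N module genes was 0.13.

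The ND5 module, at the far end of the membrane arm, was the module with the highest median. All 6 members were above 0, the lowest at 0.33 and the highest at 0.80, and 5 of the 6 had both space flight values above both ground control values, as had 23.0% of measured genes. The module's medians on space flight arrays 1 and 2 were 0.36 and 0.64. Ndufb8 had 13.08 and 12.46 in space flight, against 11.88 and 12.05 in ground control, a difference of 0.80 ± 0.24. Here array 1 was the higher one, the reverse of most members. A second, much dimmer probe set, with a mean of 7.61 against 12.37, gave −0.18 with overlapping groups. Ndufb2 stood at 0.69 ± 0.25, with 11.81 and 12.05 in space flight, against 10.99 and 11.48 in ground control. Its other measured probe sets gave 0.78 and −0.02, the latter with a mean of 6.44, close to the dim limit. Ndufb7, a subunit facing the intermembrane space, had 13.83 and 14.17 in space flight, against 13.43 and 13.41 in ground control, a difference of 0.58 ± 0.17. Its groups were clearly apart, and its second probe set gave 0.57. Ndufab1, the mitochondrial acyl carrier protein, which also serves fatty acid synthesis, had 11.24 and 11.80 in space flight, against 10.88 and 11.24 in ground control. The groups overlapped narrowly, the difference was 0.46 ± 0.28, and its other measured probe sets ran from −0.02 to 0.64. Ndufb9 stood at 0.40 ± 0.17. Ndufb3, the lowest of the module, had 12.35 and 12.37 in space flight, against 11.92 and 12.13 in ground control, a difference of 0.33 ± 0.21.

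In the ND4 module, which is also built of b-series subunits, 4 of 5 measured members were above 0 and the median was 0.22. Ndufb10 had 12.31 and 12.99 in space flight, against 12.07 and 11.85 in ground control, a difference of 0.69 ± 0.25. The groups did not overlap, but array 2 lay much further away than array 1. Ndufb6, Ndufb11 and Ndufb5 stood at 0.32 ± 0.17, 0.22 ± 0.17 and 0.03 ± 0.18. Ndufb1 had 8.35 and 8.39 in space flight, against 8.38 and 8.96 in ground control, a difference of −0.30 ± 0.35, with overlapping groups.

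The modules near the joint of the arms held both large and negligible differences. In the ND2 module, Ndufs5, a small protein of the intermembrane space, had 10.84 and 11.24 in space flight, against 9.96 and 10.22 in ground control. Its difference was 0.95 ± 0.28 with no overlap. Ndufc1 stood at 0.42 ± 0.19 and Ndufa10 at 0.10 ± 0.22. Ndufc2 had 13.89 and 13.95 in space flight, against 13.81 and 13.85 in ground control, a difference of 0.09 ± 0.15, and 0.42 on each of its other 2 measured probe sets. In the ND1 module, Ndufa13, also known as GRIM-19 and linked to cell death, had 13.23 and 13.75 in space flight, against 12.73 and 13.19 in ground control. Its difference was 0.53 ± 0.23, and the lower space flight array was barely above the higher ground control array. Ndufa3 stood at 0.24 ± 0.20 and Ndufa1 at 0.10 ± 0.11. Ndufa8 had 12.07 and 12.42 in space flight, against 12.45 and 12.42 in ground control, a difference of −0.19 ± 0.21 that came from array 1.

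**Figure D2:**
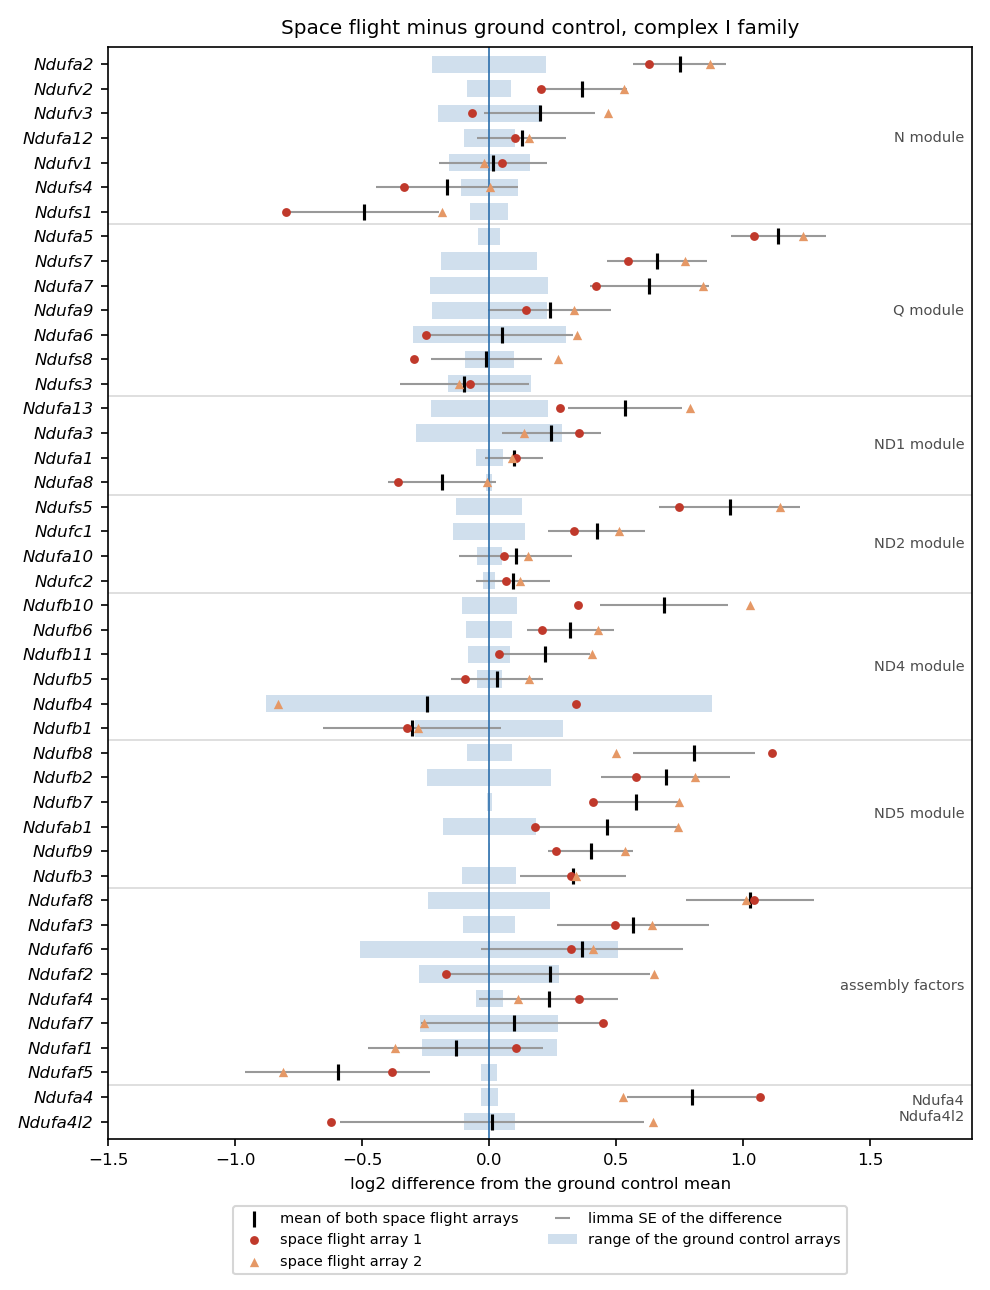
Difference of each member gene from its ground control mean on the log2 scale, for space flight arrays 1 (circles) and 2 (triangles), with their mean (black tick), limma's standard error (grey line; none for Ndufb4, which was not measured) and the range of the 2 ground control arrays (blue bar). All 6 genes of the ND5 module lie right of 0, the N and Q modules spread from Ndufs1 at −0.49 to Ndufa5 at 1.14, and Ndufaf8 and Ndufaf5 lie on opposite sides.

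The assembly factors ran from −0.60 to 1.03, with 6 of 8 above 0 and a median of 0.24. That median was 0.07 when ground control replicate 2 was left out, and 0.01 with the arrays shifted to 1 median. In those settings the medians of all measured genes were 0.01 and −0.16. Ndufaf8 and Ndufaf5 are partners: in human cells NDUFAF5 hydroxylates the core subunit NDUFS7 and NDUFAF8 stabilises it. Ndufaf8 had 11.99 and 11.95 in space flight, against 10.70 and 11.18 in ground control, a difference of 1.03 ± 0.25. Ndufaf5 had 7.98 and 7.55 in space flight, against 8.39 and 8.33 in ground control, a difference of −0.60 ± 0.36. The groups did not overlap for either gene, in opposite directions. The second probe set of Ndufaf8 gave 0.20, so the size of its difference depended on the probe set.

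Ndufaf3 and Ndufaf4 work together on the Q module. Ndufaf3 stood at 0.57 ± 0.30, with no overlap between groups. Ndufaf4 had 10.49 and 10.26 in space flight, against 10.09 and 10.19 in ground control, a difference of 0.23 ± 0.27, and its second probe set gave −0.43, so no direction could be given. Ndufaf1, which acts in assembly of the membrane arm, stood at −0.13 ± 0.35, Ndufaf2, a paralogue of Ndufa12, at 0.24 ± 0.39, Ndufaf6 at 0.37 ± 0.40 and the methyltransferase Ndufaf7 at 0.10 ± 0.37. Their groups overlapped.

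Of the genes that keep an Nduf name without belonging to complex I, Ndufa4 had 12.19 and 11.65 in space flight, against 11.09 and 11.16 in ground control, a difference of 0.80 ± 0.26. Both space flight arrays were higher. Ndufa4l2 was close to the dim limit, with 5.82 and 7.09 in space flight, against 6.55 and 6.35 in ground control, a difference of 0.01 ± 0.60. Its space flight arrays lay on either side of the ground control arrays.

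By symbol, the b series had a median of 0.36 over 10 measured genes, the a series 0.24 over 13, the c series 0.26 over 2, the v series 0.20 over 3 and the af series 0.24 over 8. The s series, which holds most of the core subunits measured here, had −0.05 over 6, with 2 above 0 and 4 below. Leaving out 1 array at a time moved the module medians over all members: they ran from −0.01 to 0.23 for the N module, 0.14 to 0.40 for the Q module, 0.00 to 0.34 for ND1, 0.20 to 0.34 for ND2, 0.06 to 0.36 for ND4 and 0.36 to 0.64 for ND5. The lowest of these came without ground control replicate 1 for the N, ND1 and ND4 modules and without space flight replicate 2 for the others. The symbols do not follow the modules: the s series includes the accessory subunits Ndufs4 and Ndufs5, at −0.17 and 0.95.

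Probe sets of one gene gave a second reading of the same RNA. Of the 88 probe sets, 83 reached the dim limit, with 68 above 0 and 15 below, where 48.6% of all 22519 such probe sets were above 0. Of 22 genes with 2 or more measured probe sets, 16 had all of them on one side of 0 and 6 did not: Ndufab1, Ndufaf4, Ndufb2, Ndufb8, Ndufs4 and Ndufs8. The probe set below 0 had a mean of 6.44 for Ndufb2, near the dim limit. It had 7.61 for Ndufb8 and 7.14 for Ndufab1, both far dimmer than the brightest probe set. For Ndufs8, probe sets with means of 12.60 and 12.89 gave −0.40 and 0.08. Agreement was close for Ndufb7 at 0.58 and 0.57, Ndufs7 at 0.66 and 0.69, and Ndufa5 at 1.14 and 0.97. It was loose for Ndufa3, where a dim probe set gave 1.63 and the others 0.24 and 0.32. That dim probe set had 7.71 and 6.78 in space flight, against 6.51 and 4.73 in ground control. It reached the dim limit only through space flight, yet it counts among the 68. Conversely, a probe set of Ndufab1 with 7.28 and 5.74 in space flight, against 5.80 and 6.39, was left out through its ground control values. The brightest probe set of 4 genes was of the maker's x_at class and that of 5 genes of the s_at class, which can also bind other transcripts.

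**Figure D3:**
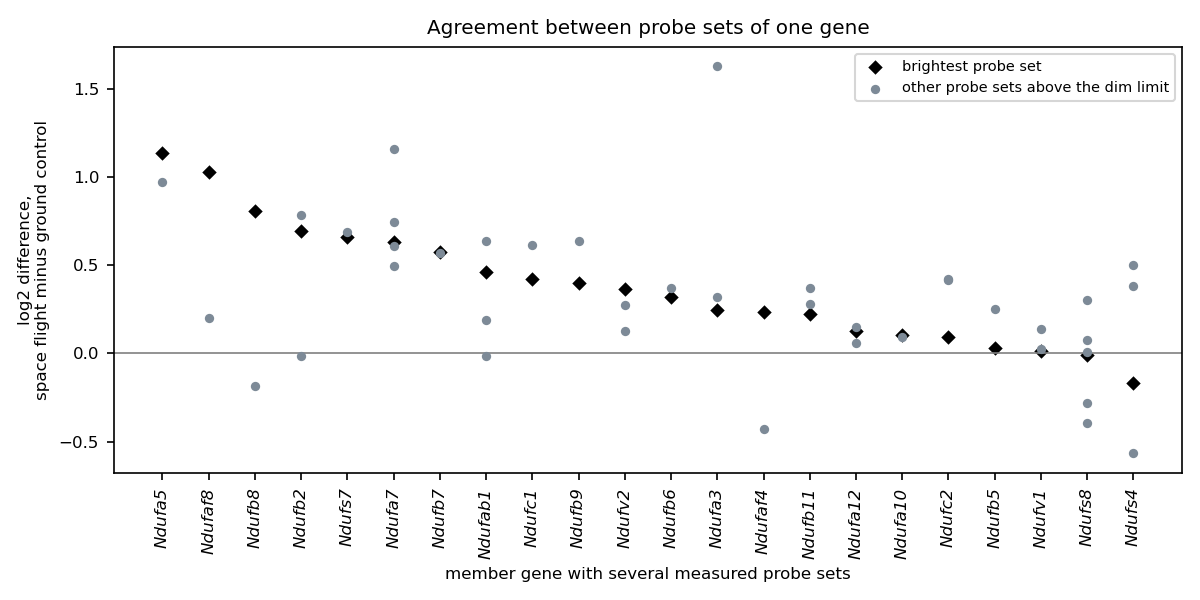
Difference between space flight and ground control on the log2 scale for the 22 member genes with several measured probe sets; diamonds are the brightest probe set of a gene and circles its others. The diamonds and circles of Ndufa5, Ndufa7, Ndufs7 and Ndufb7 all lie above 0, while those of Ndufb8, Ndufaf4, Ndufs4 and Ndufs8 lie on both sides.

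A list of 13 further complex I genes, chiefly assembly factors with other names, had a median of −0.11. Of these, 5 were above 0 and 8 below. At an unadjusted p under 0.05 in limma, 3 were lower and 0 higher, against 7.32% and 6.88% of all measured genes. The list had 0 genes called in either direction at the adjusted threshold. Its highest gene was Tmem126b, a membrane arm assembly factor, at 0.48 ± 0.42. Its lowest was Nubpl, which is known to deliver iron-sulphur clusters to complex I. Nubpl had 8.88 and 9.39 in space flight, against 10.05 and 10.50 in ground control, a difference of −1.14 ± 0.32 with no overlap. Iron-sulphur cluster assembly genes had a median of 0.14 over 12, from Hscb at −0.32 ± 0.29 to the glutaredoxin Glrx5 at 0.93 ± 0.24.

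The other respiratory complexes gave medians on both sides of 0. For complex II the median was −0.12 over 8 genes, from Sdhaf3 at −0.94 ± 0.38 to Sdhaf1 at 0.66 ± 0.37, both assembly factors. For complex III it was 0.37 over 9 genes, from cytochrome c1, Cyc1, at −0.37 ± 0.19 to the small subunit Uqcrq at 0.89 ± 0.25. For complex IV it was 0.03 over 12 genes, from Cox7c at −0.89 ± 0.83 to Cox6a2 at 0.71 ± 0.30. Cox7c lay near the dim limit, with 7.53 and 4.89 in space flight, against 7.80 and 6.39 in ground control, and its groups overlapped. For the ATP synthase, complex V, it was 0.21 over 18 genes, with 12 above 0, from the rotor subunit gene Atp5c1 at −0.64 ± 0.16 to Atp5md at 1.05 ± 0.31. Mitochondrial ribosomal protein genes had a median of 0.22 over 76, with 57 above 0 and array medians of 0.16 and 0.37, close to those of the complex I family. Mrps9 was the highest at 1.09 ± 0.31 and Mrpl3 the lowest at −0.43 ± 0.26. Cytosolic ribosomal protein genes had 0.04 over 43, from Rpl4 at −0.69 ± 0.14 to Rps25 at 0.88 ± 0.33. None of these lists had a gene past limma's adjusted threshold. At an unadjusted p under 0.05 in limma, 6.88% of all measured genes were higher and 7.32% lower. By that rule the counts higher and lower were 0 and 1 for complex II, 3 and 0 for complex III and 2 and 0 for complex IV. They were 4 and 1 for complex V and 2 and 0 for iron-sulphur cluster assembly. For the mitochondrial ribosome they were 6 and 0 of 76, and for the cytosolic ribosome 6 and 2 of 43. Differences between these lists and the complex I family were not tested, and the shift of the complex I family is not shown to be particular to it. Among all 1335 genes whose mean level was at least 12 the median was −0.03, and among the 23 family members in that range it was 0.33.

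**Figure D4:**
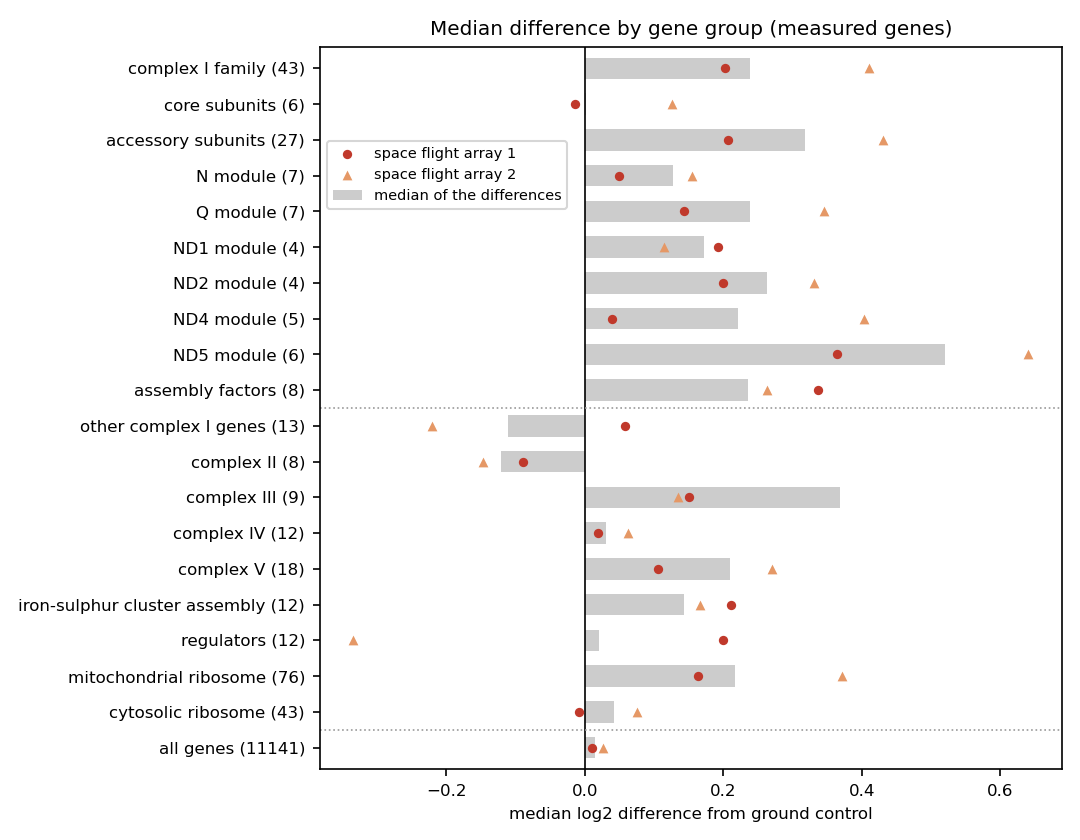
Median log2 difference of the measured genes of each group (number in brackets), as grey bars, with the median on space flight array 1 (circles) and array 2 (triangles), each against the ground control mean. The ND5 module has the longest bar at 0.52, core subunits sit at 0.00, and the mitochondrial ribosome at 0.22 lies close to the complex I family at 0.24.

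Regulators of nuclear mitochondrial genes showed no common direction, with 6 of 12 measured genes above 0 and a median of 0.02. Space flight array 1 gave the regulators a median of 0.20 and array 2 one of −0.33. Yy1 had 13.15 and 13.19 in space flight, against 12.43 and 12.82 in ground control, a difference of 0.54 ± 0.20 with no overlap. Gabpa, the DNA-binding part of the GABP factor, had 10.14 and 9.61 in space flight, against 10.73 and 10.49 in ground control, a difference of −0.73 ± 0.30, also with no overlap. Nrf1 stood at 0.12 ± 0.40, with space flight arrays on either side of both ground control arrays. The coactivator genes Ppargc1b and Pprc1 stood at −0.49 ± 0.30 and −0.08 ± 0.32, and Ppargc1a was below the dim limit. Esrra stood at 0.28 ± 0.31, Gabpb1 at 0.40 ± 0.49 and Gabpb2 at −0.41 ± 0.36. Of the factors that serve the upkeep or expression of mitochondrial DNA, Tfam stood at −0.23 ± 0.29, Tfb1m at 0.22 ± 0.33, Tfb2m at −0.20 ± 0.39 and Polrmt at 0.12 ± 0.33. No regulator passed limma's adjusted threshold. At an unadjusted p under 0.05 there was 1 higher and 1 lower of 12, against 6.88% and 7.32% of all measured genes.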

How the data were processed

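Per the submitters' processing notes, the arrays were read with GCOS; its version and settings were not given in the sources used here. The deposited values are linear intensities, 1 for each probe set on each array, and were already scaled by a common factor within an array, since all 4 arrays had the same mean, 500.004, once the outer 2% at either end was trimmed. The labels' protocols describe 2 rounds of amplification from degraded RNA, which favours 3' ends. The number of arrays limits the precision.

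From the deposited intensities, log2(value + 16) was taken in R 4.3.3, which makes folds of dim genes too small. Array medians differed by up to 0.385, above a tolerance of 0.1, so quantile normalization was applied, leaving out 64 control probe sets. The platform annotation gave 1 symbol to 34945 of the 45037 others, several to 932 and none to 9160. Only probe sets with 1 symbol named a gene. Each gene was represented by its brightest probe set, and 11141 genes with a mean of at least 6.40 were tested two-sided with limma 3.58.1, using lmFit, then eBayes with its trend option, with Benjamini-Hochberg adjustment over these genes, a threshold of 0.05 and 2 residual degrees of freedom. On simulated data with independent normal errors, the procedure was checked for whether its mean estimates recovered the differences put in. No error rate is taken from that check. Errors of differences are limma's standard errors. Medians over lists are descriptions. Arrays of a group are pools of cultures from 1 pool of marrow, so p-values measure the spread of cultures and hybridisations, not of animals.

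The members and lists were chosen with earlier results of these data known. Values on each array are given for the core subunits, the highest and lowest measured member of each module, Ndufa4, Ndufa4l2 and members whose probe sets disagree, plus the lead regulators, Ndufb7 and Nubpl, which were singled out after their values were seen; comparison lists are represented by their highest and lowest gene. Module membership follows general knowledge of the mammalian enzyme. Replicate numbers of the labels were checked for pairing: deviations of same-numbered arrays from their group means correlated at 0.06 across genes, so the arrays were not treated as pairs. The alternatives covered array scaling, pseudocount, dim filter, choice of probe set, intensity trend, a replicate block and each array left out. No protein sequences were used here.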

Additional observations from a re-analysis of the deposited data

Results flagged for a closer look

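Outside the 88 single-symbol probe sets, 10 probe sets carry several symbols of which at least 1 belongs to the family. No gene is named from them. Of the 9 that reached the dim limit, 9 had a difference above 0, and for 7 both space flight values lay above both ground control values. The one left out, 1439903_at, had 6.44 and 5.76 in space flight, against 6.52 and 6.54 in ground control. Its difference was −0.43, and its mean of 6.32 missed the limit through its space flight values. The count of 9 above 0 thus depends in part on the filter. These 7 drew attention because their space flight signal exceeded the controls in data that the comparisons above did not use. Their differences were 0.89 for 1416495_s_at, 0.47 for 1428075_at, 0.35 for 1428076_s_at, 0.34 for 1433603_at, 0.63 for 1444154_at, 0.19 for 1447919_x_at and 1.72 for 1452641_at. The first had 11.87 and 12.14 in space flight, against 11.11 and 11.11 in ground control. The last had 8.65 and 8.69 in space flight, against 6.59 and 7.32 in ground control. Over all 22519 probe sets above the dim limit, both space flight values lay above for 20.7%. No value in a group of 2 arrays could be judged an outlier.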

How the results depend on the processing

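The family's median difference stayed above 0 under each alternative computed, from 0.13 with arrays shifted to 1 median to 0.41 without space flight replicate 1. With arrays left out 1 at a time it was 0.20 to 0.41. With arrays shifted to 1 median the median of all measured genes moved to −0.16, 27 of 44 members lay above 0, core subunits stood at −0.19 and accessory subunits at 0.17, and the family's median on space flight array 2 was 0.11. Relative to all measured genes the family's median ran from 0.19 to 0.39, and accessory subunits exceeded core subunits by 0.25 to 0.36. The ND5 module stayed between 0.33 and 0.64. The N module and the core subunits changed sign under 2 and 4 of the 14 alternatives, and of the 44 genes 20 stayed above 0, 4 stayed below 0 and 20 changed sign at least once.

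The count of all genes past the threshold was 7. It was 16 with values as deposited, 21 with cyclic loess, 12 with a pseudocount of 64, and 0 with arrays shifted to 1 median, with no filter on dim genes, with the mean of probe sets and without an intensity trend; 7 to 1080 passed with 1 array left out. The replicate block, which uses up a degree of freedom on numbers that were not shown to pair the arrays, gave 433 genes and 6 members. With 1 array left out 0 to 9 members passed, and 32 to 38 of 44 members did not overlap, against 25 with all arrays. Among all measured genes the share without overlap was 66.5% to 79.6% with 1 array left out and 45.5% with all arrays. At an unadjusted p under 0.05 there were 6 higher members without an intensity trend, beside 6.36% of all measured genes. With arrays shifted to 1 median there were 5, beside 2.89%, and 1 lower member, beside 10.5%. The main setting gave 14 higher members, beside 6.88%. The causes of these shifts in counts were not tested. Among the members, signal over background limits Ndufb4 and Ndufa4l2 above all.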
